A study of Mus musculus with 2 samples.

Results

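This account follows 41 mouse genes for serine, folate, proline and related amino acid metabolism and for the response to the transcription factor ATF4. They were chosen by name, with earlier results of these data known. Their values are the rows of the deposited table that the platform annotation assigns to each gene. Of the 41 genes 38 had a row of their own, among 19504 genes measured in all, and each of the 38 reached the low-signal level (5.44, the median of the table) in both arrays, so no member entered through its brighter array alone. Glul, glutamine synthetase, lies only on a row shared with a microRNA gene. Its level was not analysed here, nor were those of Mat2a, which makes S-adenosylmethionine, and Pycr1, which completes proline synthesis.

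The tissue was corneal epithelium from C57BL/6 mice of both sexes, 8 weeks old, anaesthetised with ketamine at 87 mg/kg and xylazine at 13 mg/kg. In the injured group the epithelium had been scraped off as far as the limbus with a 0.5 mm rust ring remover, and tissue was taken about 48 hours later, when 10% of the wound was still open. The uninjured group is the epithelium of the fellow eyes, so these mice carried a wound in the other eye and had the same anaesthesia. There was 1 array in each group, and the labels do not say how many mice stand behind an array. Values are deposited log2 intensities, differences are injured minus uninjured, and a gene counts as higher or lower at a difference of 1 or more, which is 2-fold. With 1 array a group there is no SD, no test and no replicate check. Rows that share a gene within these arrays disagreed with an SD of 0.243 in their log2 difference, over 543 rows of 256 genes. This is the only error the design can show, and it does not measure variation between arrays or between mice.

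Corneal epithelial markers were present in both arrays. Krt12, the corneal keratin, had a log2 intensity of 14.07 in the uninjured and 10.85 in the injured array, and Krt5, the basal keratin, 13.85 and 13.69. Of the 10 measured corneal markers 2 were at least 2-fold higher, Krt14 (difference 2.23) and Epcam (1.43). The 4 lower ones were Slurp1 (-6.61), Krt12 (-3.22), Aldh3a1 (-2.68) and Pax6 (-1.32). The summed linear level of the 10 was 64156 uninjured and 35387 injured. Conjunctival and goblet cell markers were also present, among them Krt13 at 12.06 uninjured and 11.77 injured (log2). Of these 10 markers 3 were higher, Krt8 (difference 1.52), Krt7 (1.34) and Krt19 (1.11), and 1 lower, Muc5ac (-1.26). Their summed levels were 10796 uninjured and 13436 injured. The stromal markers Kera and Lum lay below the low-signal level in both arrays, and of the 8 measured stromal markers 0 were higher and 1 lower. Summed levels take in every listed marker with a value, also those below the low-signal level. With Kera and Lum the stromal sums were 832 uninjured and 823 injured, and the sums in brackets below were formed alike. Past 2-fold were 0 of 9 macrophage markers (1039 and 1277), 1 of 7 neutrophil markers, S100a9 (435 and 646), 0 of 4 lymphocyte markers (320 and 357), 0 of 2 endothelial markers (270 and 295) and 1 of 7 markers of melanocytes, nerve and lens (761 and 992). Of 9 markers of dividing cells 8 were at least 2-fold higher, and their summed level was 2984 uninjured and 9045 injured. Among all genes measured 4.13% were at least 2-fold higher and 3.93% lower, so counts of 0 or 1 in these short lists say little. The part of these cell markers in the values that follow was not tested. In bulk tissue a change in the number of cells of a type and a change of RNA per cell cannot be told apart.

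Cells make serine from a glycolytic intermediate in 3 steps, carried out by Phgdh, Psat1 and Psph. Serine then gives a carbon unit to folate, in the cytosol through Shmt1 and in mitochondria through Shmt2, and folate enzymes pass this unit on to purines, thymidylate and methionine. ATF4 is a transcription factor whose protein is made when amino acids run short or unfolded proteins build up, a control that acts mainly on translation of its messenger RNA. It binds a composite C/EBP-ATF element and switches on genes for amino acid synthesis and uptake, with stress genes such as Ddit3, Trib3 and Chac1.

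Promoters are shown for the members that hold the letters ATF4 is known to bind, and for Aldh18a1, which holds an E-box and no such match. RefSeq windows on GRCm38.p6, from 250 bases before to 50 bases after an annotated start, existed for 35 of the 41 genes. The motif TGATGNAA was searched on both strands, and a match on the other strand reads as TTGCATCA or TTACATCA below. It occurred in windows of 7 of these 35 genes, or 20%, against 4.51% of the 27025 genes that have a window and 3.97% of the 32851 windows. The 7 genes are Asns, Nupr1, Got1, Slc1a4, Chac1, Trib3 and Pycr1. Genes of the ATF4 pathway were chosen as members by name. A larger share than among all genes can follow from that choice and is no result. The E-box CACGTG, the letters bound by MYC and other factors, was in the windows of Nupr1 and Aldh18a1, 2 of 35 genes or 5.71%, against 8.09% of all genes. It does not overlap the other motif in Nupr1. A match describes letters only and is no measured binding site. The 250 bases before the start are printed in the direction of transcription for the 3 members with a motif that differed most, with both motifs in capitals.
Asns, chr6:7693210-7693459, minus strand: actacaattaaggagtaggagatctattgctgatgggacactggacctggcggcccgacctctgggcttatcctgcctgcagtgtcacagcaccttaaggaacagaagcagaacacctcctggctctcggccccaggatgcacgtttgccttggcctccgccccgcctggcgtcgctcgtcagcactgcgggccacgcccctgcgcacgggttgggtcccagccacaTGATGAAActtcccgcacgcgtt
Nupr1, chr7:126625471-126625720, minus strand: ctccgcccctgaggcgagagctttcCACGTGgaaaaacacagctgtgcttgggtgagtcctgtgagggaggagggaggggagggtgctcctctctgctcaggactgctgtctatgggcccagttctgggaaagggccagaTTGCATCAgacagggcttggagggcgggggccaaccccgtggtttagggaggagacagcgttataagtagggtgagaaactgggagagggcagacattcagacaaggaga
Aldh18a1, chr19:40588464-40588713, minus strand: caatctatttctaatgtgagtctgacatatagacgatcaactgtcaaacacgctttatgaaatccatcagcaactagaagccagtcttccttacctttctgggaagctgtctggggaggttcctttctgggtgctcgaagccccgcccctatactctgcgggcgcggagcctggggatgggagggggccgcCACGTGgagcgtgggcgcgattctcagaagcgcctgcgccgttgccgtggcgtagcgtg

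The other matches to TGATGNAA are printed with their surroundings, in capitals, since Chac1 shares its letters with Nupr1, Got1 and Slc1a4 but has a difference of the opposite sign (values are given with each gene).
Chac1, chr2:119351029-119351076, plus strand: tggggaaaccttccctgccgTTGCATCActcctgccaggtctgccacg
Got1, chr19:43524680-43524727, minus strand: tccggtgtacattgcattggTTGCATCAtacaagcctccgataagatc
Slc1a4, chr11:20332710-20332737, minus strand: cctccagcgtgcctcctgcgTTGCATCA
Trib3, chr2:152344028-152344057, minus strand: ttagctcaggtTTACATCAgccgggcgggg
Pycr1, chr11:120643824-120643871, minus strand: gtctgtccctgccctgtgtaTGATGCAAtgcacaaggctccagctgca
In Chac1 the match begins 193 bases before the start, in Nupr1 110, in Pycr1 103, in Got1 102, in Asns 23 and in Slc1a4 4, whereas in Trib3 it begins at base 15 after the start.

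The comparison asks which of these genes differ between epithelium that is closing a wound and intact epithelium. In the injured array 11 of the 38 measured members were at least 2-fold higher, or 28.9%, against 4.13% of all genes measured. At least 2-fold lower were 0 of 38, against 3.93% of all genes. The 11 genes are Nupr1, Mthfd1l, Asns, Shmt2, Aldh18a1, Ahcy, Slc7a5, Mthfd2, Slc1a5, Phgdh and Psat1. The median difference of the 38 was 0.51, beside 0.06 for all genes measured, and 31 of them, or 81.6%, lay above 0, beside 58.4% of all genes. The members are enzymes, carriers and regulators that act together and are not independent of each other. They were also chosen with earlier results of these data known, so their excess over all genes is a description and no support.

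**Figure D1:**
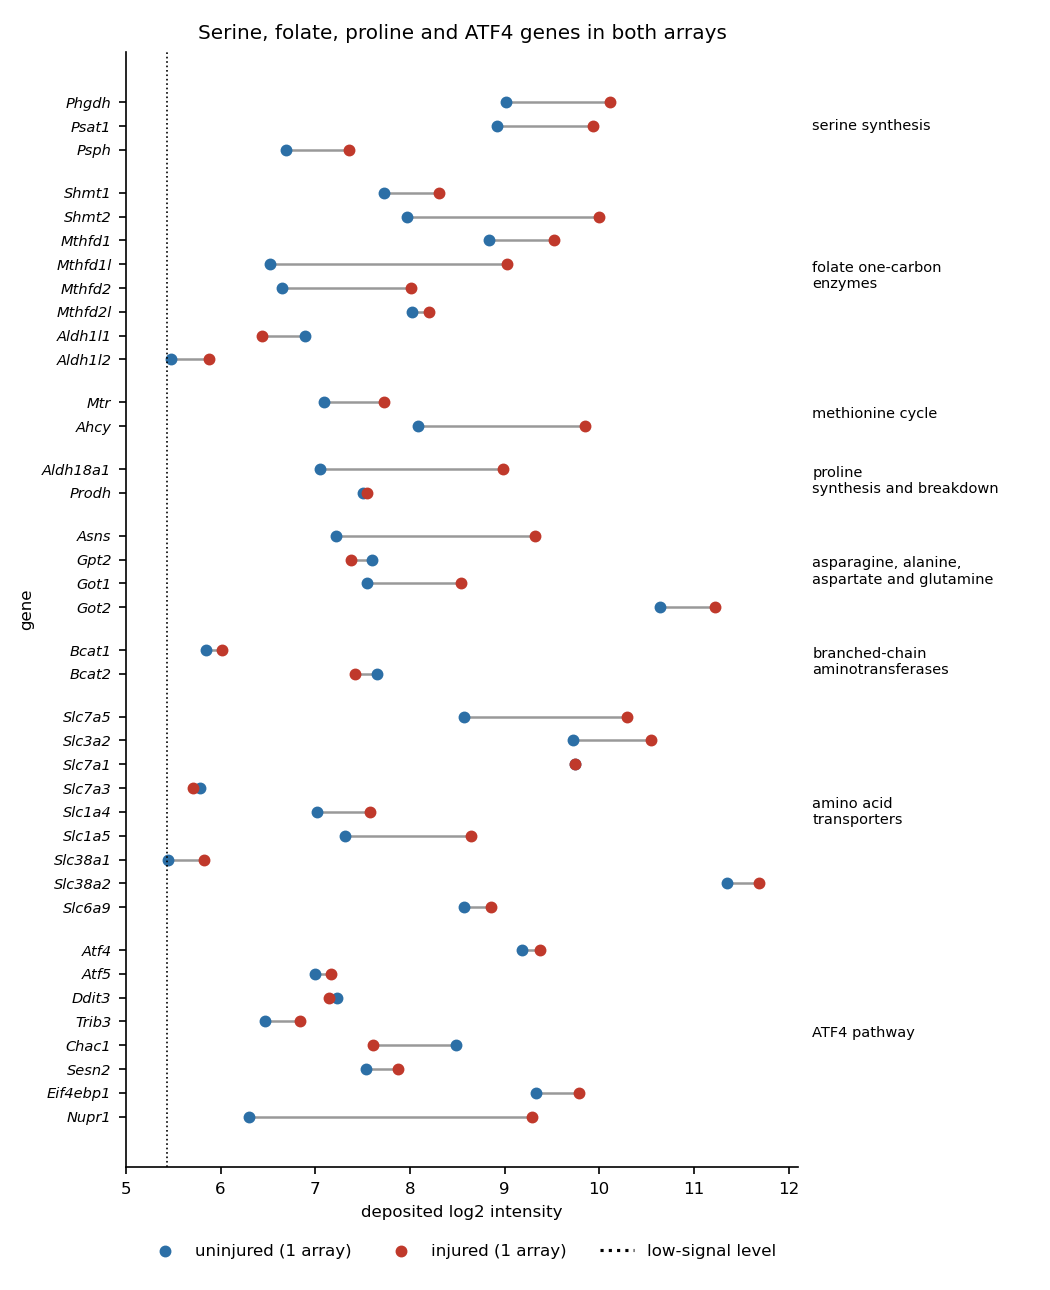
Deposited log2 intensity (horizontal axis) of the 38 measured members, grouped by role, with 1 blue point for the uninjured and 1 red point for the injured array. The dotted line is the low-signal level of 5.44, and both points of every gene lie to its right. The widest gaps belong to Nupr1 (6.30 uninjured, 9.29 injured) and Mthfd1l (6.52 and 9.03), and Chac1 has the widest gap the other way (8.49 and 7.61).

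RNA for the first enzymes of serine synthesis was higher in the injured array. Phgdh, 3-phosphoglycerate dehydrogenase, the entry step, had a log2 intensity of 9.02 in the uninjured and 10.12 in the injured array, a difference of 1.10 (2.15-fold). Psat1, the aminotransferase that follows, had 8.92 and 9.94, a difference of 1.02 (2.03-fold). Both lie close to the 2-fold line, and after quantile normalization Psat1 fell short of it, at 0.9952. Psph, the phosphatase that releases serine, differed by 0.66, from 6.69 to 7.35, short of 2-fold. All 3 values were larger in the injured array, and 653 of the 19504 genes had a larger difference than Phgdh.

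Among the folate enzymes, those furthest above 0 were mitochondrial. Mthfd1l, the synthetase that releases formate from the mitochondrial route, had 6.52 uninjured and 9.03 injured, a difference of 2.50 (5.67-fold) that 61 of all genes measured exceeded. Shmt2, the mitochondrial serine hydroxymethyltransferase, had 7.97 and 9.99, a difference of 2.03 (4.08-fold). Mthfd2, the mitochondrial dehydrogenase and cyclohydrolase of dividing cells, had 6.65 and 8.01, a difference of 1.36 (2.57-fold). These 3 carry serine carbon to formate, which leaves the mitochondrion for the cytosol. The remaining mitochondrial members were less than 2-fold apart: Mthfd2l, a paralogue of Mthfd2, differed by 0.17, and Aldh1l2, which burns the folate unit to carbon dioxide, by 0.40 near the low-signal level (5.47 uninjured, 5.88 injured).

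The cytosolic folate enzymes were each less than 2-fold apart. Shmt1 had 7.73 uninjured and 8.30 injured, a difference of 0.58. Mthfd1, the cytosolic enzyme with 3 activities that takes up formate, had 8.83 and 9.52, a difference of 0.69. Aldh1l1, the cytosolic counterpart of Aldh1l2, had 6.89 and 6.44, a difference of -0.45. The median was 1.36 over the 5 mitochondrial and 0.58 over the 3 cytosolic enzymes, a division by compartment that was made after their values were seen and that was not tested. At least 2-fold higher were 3 of 5 mitochondrial and 0 of 3 cytosolic enzymes, beside 4.13% of all genes, a share at which a count of 0 among 3 says nothing about the cytosolic enzymes.

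Outside the 41 genes, 15 of 18 further folate and thymidylate genes were measured, with a median of 0.31. At least 2-fold higher were Atic (1.17), which uses folate in purine synthesis, and Tyms (1.13), thymidylate synthase, beside 4.13% of all genes. The folate carrier Slc19a1 differed by 0.98, just short of 2-fold, and the folate receptor Folr2, a gene also expressed by macrophages, was lower (-1.63, from 7.75 to 6.12). Macrophage markers had summed levels of 1039 uninjured and 1277 injured, and the part of macrophages in the Folr2 value was not tested. Dividing cells need thymidylate and purines, and Mki67, a marker of proliferation, had 10.03 uninjured and 11.64 injured, a difference of 1.61. The part of dividing cells in the folate values was not tested.

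The genes that cleave glycine or use serine for other ends had a median of -0.06. Of 11 measured, 0 passed 2-fold upwards and 2 downwards, beside 4.13% and 3.93% of all genes. Gldc, the glycine decarboxylase of the mitochondrial cleavage system, had 8.81 uninjured and 5.69 injured, a difference of -3.12 (8.69-fold lower), opposite in sign to Shmt2. Amt, the aminomethyltransferase of the same system, differed by -1.23. The carrier subunit Gcsh and the shared subunit Dld were less than 2-fold apart. Sfxn1, a mitochondrial serine carrier, was higher (1.27, from 8.10 to 9.37).

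**Figure D2:**
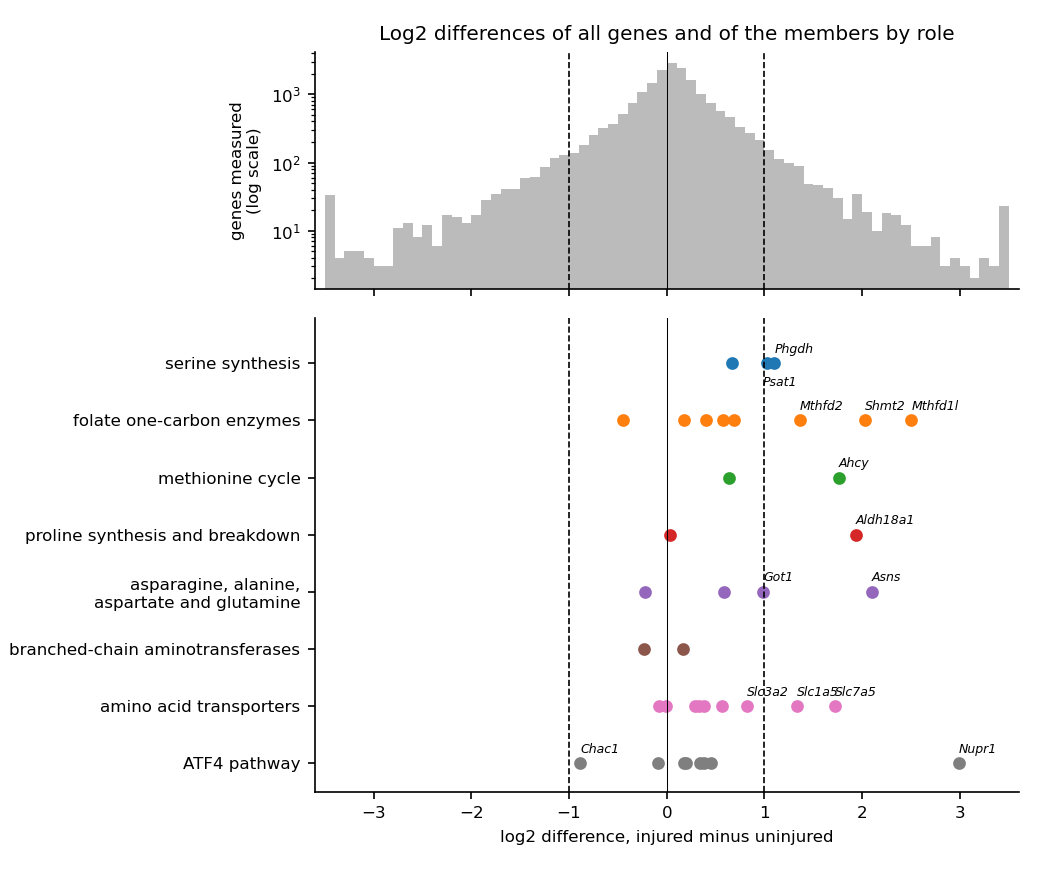
Upper panel: log2 difference, injured minus uninjured, of all 19504 genes measured, counted on a log scale, where each end bar also holds every gene beyond the axis. Lower panel: the same difference for the 38 members, 1 point a gene, by role, with dashed lines at 2-fold, and with 11 points to the right of the upper line and 0 to the left of the lower one.

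In the methionine cycle, which folate supplies with methyl groups, Ahcy was higher. Ahcy, the hydrolase that clears S-adenosylhomocysteine, had 8.08 uninjured and 9.84 injured, a difference of 1.76 (3.39-fold). A second row under its name differed by 1.89. The identifier of that row carries chromosome 16, whereas the gene lies on chromosome 2, so which locus gave the second value is uncertain. Mtr, methionine synthase, had 7.09 and 7.72, a difference of 0.63. Of 16 further measured genes of methionine and transsulfuration (median 0.17), 1 was at least 2-fold higher and 1 lower. Among all genes these shares were 4.13% and 3.93%. Mtap, which salvages methionine from polyamine synthesis, was higher (1.49), and Cdo1, which breaks down cysteine, lower (-4.01, from 12.34 to 8.33). The transsulfuration enzymes Cbs (-0.65) and Cth (0.18) were less than 2-fold apart.

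RNA for the entry enzyme of proline synthesis was higher in the injured array. Aldh18a1, which commits glutamate to proline, had 7.05 uninjured and 8.99 injured, a difference of 1.94 (3.83-fold). Prodh, which starts proline breakdown, had 7.51 and 7.54, a difference of 0.04. Of this pair only the synthesis gene passed 2-fold, and whether they differ from each other was not tested. Pycr3, a reductase of the same route listed as Pycrl, differed by 0.26, and Oat, which links ornithine to proline, by -0.73.

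Among enzymes that move nitrogen between amino acids, asparagine synthetase stood apart. Asns had 7.22 uninjured and 9.32 injured, a difference of 2.10 (4.28-fold), and its promoter holds TGATGAAA 23 bases before the start. Got1, the cytosolic aspartate aminotransferase, had 7.55 and 8.54, a difference of 0.99 that fell just short of 2-fold, and its mitochondrial partner Got2 had 10.64 and 11.22, a difference of 0.58. Gpt2, the mitochondrial alanine aminotransferase, had 7.60 and 7.38, a difference of -0.22. Of 12 further measured genes of glutamate, aspartate and proline, Ppat, which spends glutamine on purine synthesis, was the 1 past 2-fold (1.08). The list median was 0.11, and 4.13% of all genes were at least 2-fold higher.

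The aminotransferases of the branched-chain amino acids leucine, isoleucine and valine were less than 2-fold apart. Bcat1, the cytosolic form, had 5.85 uninjured and 6.01 injured, a difference of 0.16, and Bcat2, the mitochondrial form, had 7.65 and 7.42, a difference of -0.23. Among 17 measured genes for the breakdown of the resulting keto acids, 16 had a difference below 0, or 94.1%, beside 40.8% of all genes, with a median of -0.42. Only Acadsb, a branched-chain acyl-CoA dehydrogenase, was at least 2-fold lower (-1.01), beside 3.93% of all genes. Bckdhb, a subunit of the keto acid dehydrogenase, differed by -0.51. The exception above 0 was Bckdk (0.14), the kinase that switches this dehydrogenase off.

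**Figure D3:**
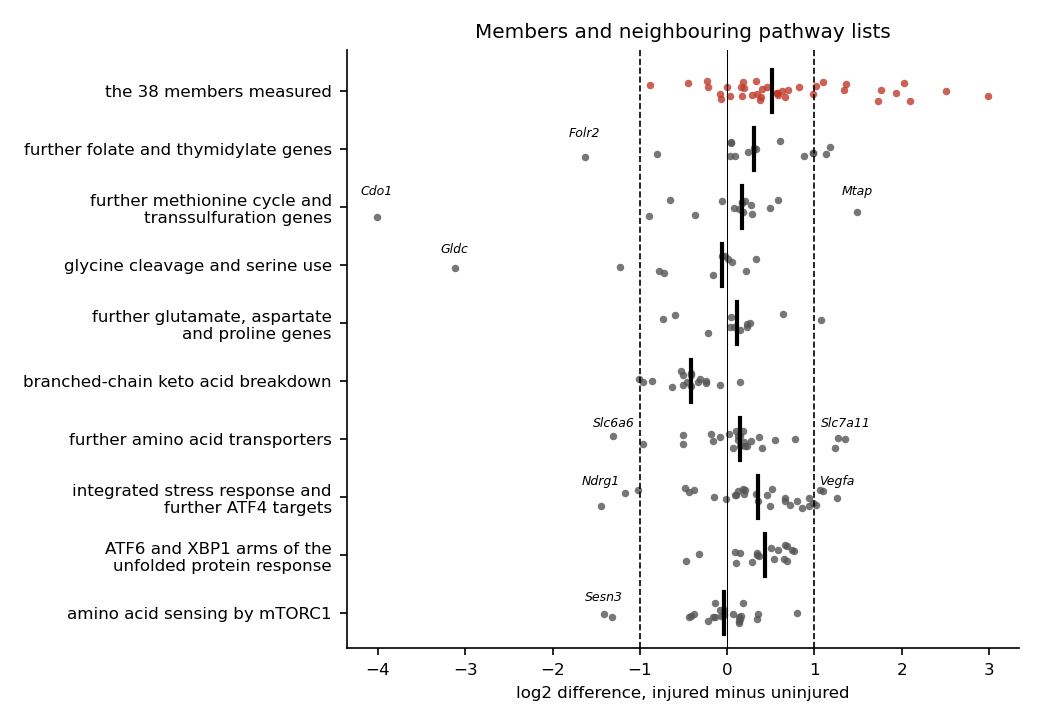
Log2 difference, injured minus uninjured, of the 38 measured members (red) and of the measured genes of 9 further lists (grey), 1 point a gene, with each median as a black bar and dashed lines at 2-fold. The medians run from -0.42 for branched-chain keto acid breakdown to 0.51 for the members.

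Of the 9 carriers among the members Slc7a5 and Slc1a5 were at least 2-fold higher, where 4.13% of all genes were. Slc7a5, the exchanger that imports leucine and other large neutral amino acids, had 8.57 uninjured and 10.29 injured, a difference of 1.72 (3.30-fold). Its heavy chain Slc3a2, which brings it to the membrane, had 9.72 and 10.54, a difference of 0.82, short of 2-fold. Slc1a5, a glutamine carrier, had 7.31 and 8.65, a difference of 1.33 (2.52-fold). Its relative Slc1a4, which carries serine and alanine, had 7.01 and 7.58, a difference of 0.57, with TTGCATCA at its start site.

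The remaining carriers were less than 2-fold apart. Slc38a2, a glutamine and alanine carrier, had 11.35 uninjured and 11.69 injured, a difference of 0.33. Slc38a1, of the same family, differed by 0.38 close to the low-signal level (5.44 uninjured, 5.83 injured). Slc6a9, the glycine carrier, differed by 0.29, and its second row by 0.06. Slc7a1, the arginine and lysine carrier, had 9.74 in both arrays, and Slc7a3, of the same kind, differed by -0.07 at 5.79 uninjured and 5.71 injured.

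The 26 further amino acid carriers measured had a median of 0.15. Past 2-fold were 3 upwards and 1 downwards, beside 4.13% and 3.93% of all genes. Slc7a11, the cystine importer that partners with Slc3a2, differed by 1.36, but its uninjured value of 4.59 lies below the low-signal level, so the size is uncertain. Slc7a6 (1.23), another light chain of Slc3a2, and Sfxn1 were higher, and the taurine carrier Slc6a6 was lower (-1.30).

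In the ATF4 pathway itself 1 of 8 members was at least 2-fold higher and 0 lower, beside 4.13% and 3.93% of all genes, so the count is no result about the pathway. Atf4 had 9.19 uninjured and 9.38 injured, a difference of 0.19. Its messenger RNA does not measure ATF4 protein. Atf5, a related factor under the same translational control, had 6.99 and 7.17, a difference of 0.18. Ddit3, which encodes CHOP, the factor linked to death under stress, had 7.23 and 7.15, a difference of -0.09, and its second row differed by -0.04.

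Nupr1, a small stress-induced nuclear protein, was the member furthest apart. It had 6.30 uninjured and 9.29 injured, a difference of 2.99 (7.93-fold), and 37 of the 19504 genes measured had a larger one. Chac1, which breaks down glutathione, was the member furthest below 0, with 8.49 uninjured and 7.61 injured, a difference of -0.88 (1.85-fold lower), short of 2-fold. The promoters of both hold TTGCATCA. Trib3, a pseudokinase that restrains ATF4, differed by 0.38 (6.47 and 6.84).

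The members that slow growth signalling were less than 2-fold apart. Sesn2, a leucine sensor that holds back the growth kinase mTORC1, had 7.54 uninjured and 7.88 injured, a difference of 0.34. Eif4ebp1, a repressor of translation that mTORC1 inactivates, had 9.34 and 9.79, a difference of 0.45. The paralogues Sesn1 (-1.32, from 9.59 to 8.27) and Sesn3 (-1.41, from 8.86 to 7.45) were lower. They were the 2 genes past 2-fold among 23 measured genes of amino acid sensing by mTORC1 (median -0.03), where 3.93% of all genes were lower.

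**Figure D4:**
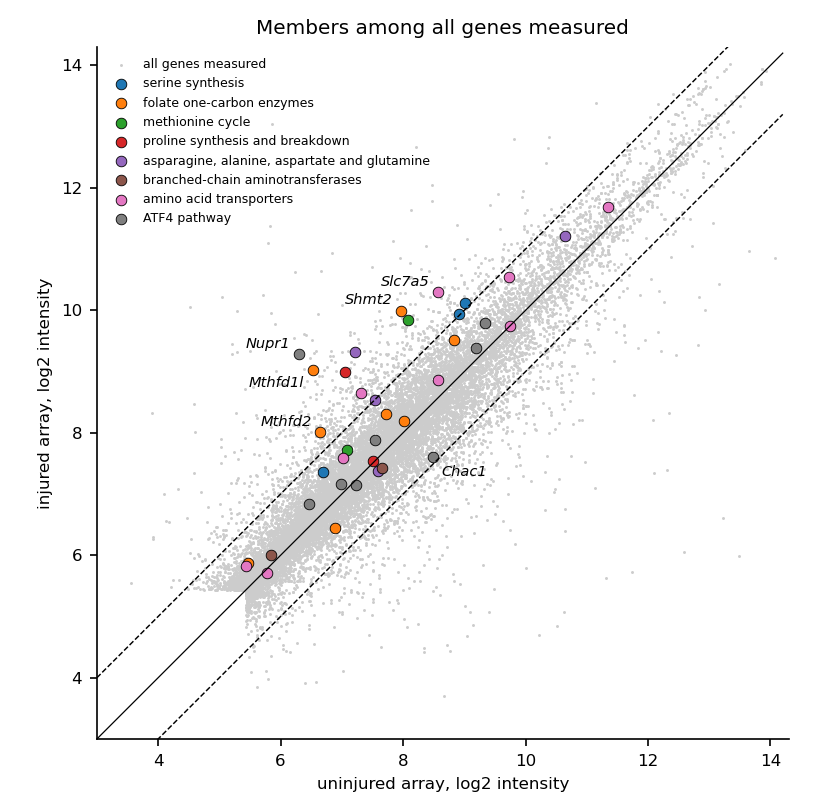
Log2 intensity in the injured array (vertical) against the uninjured array (horizontal) for all genes measured (grey) and for the 38 members by role (coloured). Dashed lines mark 2-fold, Nupr1, Mthfd1l, Shmt2, Slc7a5 and Mthfd2 are labelled above the upper one, and Chac1 lies at -0.88, inside the lower one.

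Set by motif, the 6 measured genes with TGATGNAA in the promoter window spread over much of the range of the members: Nupr1 2.99, Asns 2.10, Got1 0.99, Slc1a4 0.57, Trib3 0.38 and Chac1 -0.88. Of these 6 genes 2 were at least 2-fold higher, beside 28.9% of the measured members and 4.13% of all genes, and the motif was not tested against these values. Mthfd1l, Shmt2, Aldh18a1, Ahcy, Mthfd2, Phgdh and Psat1 passed 2-fold with no match in their windows, and for Slc7a5 and Slc1a5 there was no window. The search covered only these windows and these letters, so no match does not mean that a gene lacks a site for ATF4.

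Further genes of the integrated stress response, the pathway that raises ATF4, had members on both sides. Their median was 0.36 over 31 measured. By 2-fold or more 4 were higher and 3 lower, beside 4.13% and 3.93% of all genes. Vegfa (1.26), a growth factor for blood vessels, and the tRNA synthetase genes Cars (1.10), Tars (1.06) and Nars (1.02) were higher. Ndrg1 (-1.45), Jdp2 (-1.17) and Eif2ak4 (-1.02), the kinase that senses uncharged tRNA, were lower. The stress factors Atf3 (0.66), Cebpb (0.33) and Cebpg (0.13), the phosphatase subunit Ppp1r15a (-0.15), the mTORC1 inhibitor Ddit4 (0.93) and the hormone Fgf21 (0.20) were less than 2-fold apart. The ATF6 and XBP1 arms of the unfolded protein response, which act beside ATF4, had 0 of 18 genes past 2-fold in either direction. With 4.13% of all genes higher and 3.93% lower, this count says nothing about these arms. Their median was 0.43, and 16 of the 18, or 88.9%, lay above 0, beside 58.4% of all genes. The chaperone Hspa5 differed by 0.66 and Dnajb9 by 0.15.

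Myc, a transcription factor known to drive serine, folate and nucleotide genes in growing cells, had 8.69 uninjured and 9.72 injured, a difference of 1.04. Its part in the values of the members was not tested.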

How the data were processed

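RNA of 1 injured and 1 uninjured sample was measured; 2 µg was amplified and labelled with biotin, per the labels' protocols. The deposited table holds 65952 rows of log2 intensities, with medians of 5.44 injured and 5.43 uninjured. Agilent Feature Extraction 9.1 is named per the submitters' processing notes, but the biotin label and the transcript-cluster row identifiers are of a kind used with another maker's arrays, so how the values were made is uncertain. Background correction, normalization and build were not given in the sources used here, and no detection or saturation call was used. The log base was taken from the range of values (2.54 to 14.07).

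Rows were named from the platform annotation, with symbols updated through RefSeq (GRCm38.p6): 31241 rows had 1 gene, 1505 several and 33206 none here. Rows whose brighter value reached the table's median (5.44) were kept, and the kept row with the highest mean stood for a gene. Differences were taken on the deposited scale without further normalization (Python 3.11.15, pandas 2.3.3), and the steps were tested on simulated data. The 41 members, the 9 further lists and the marker lists were chosen with earlier results of these data known. All members are named. Of the further lists, up to the 4 largest at 2-fold or more are named, with a short fixed set whatever their values. Gcsh, Dld, Oat, Tars, Nars, Eif2ak4, Bckdk, Kera, Lum, Krt5, Krt13 and S100a9 lie outside this rule and were chosen after their values were seen. The same holds for Krt7, Krt8, Krt19, Muc5ac, Krt14, Epcam, Slurp1, Aldh3a1 and Pax6. Some genes of the short set, Gdf15 and Glud1 among them, are not reported here.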

Additional observations from a re-analysis of the deposited data

How the results depend on the processing

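Each result was recomputed under 11 alternatives of scaling, filter, row choice and added constant, and the counts under thresholds of 1.5-fold and 4-fold. Quantile normalization gave 10 members at least 2-fold higher, with Psat1 at 0.9952, and the other 10 alternatives of this kind gave 11; all 11 gave 0 lower. The median ran from 0.46 (quantile normalization) to 0.61 (brighter value at or above the 75th percentile, which left 32 members). Among these brighter genes 11 of 32 members were at least 2-fold higher, beside a larger share of all genes, 6.13%. At least 2-fold lower were 0 of 32, beside 5.79%. Of 412 values of single members 0 changed sign past 2-fold or moved by more than the SD of 0.243 between rows of a gene. A filter or row choice can drop a member with 1 row but cannot change its value. Only Ahcy, Ddit3 and Slc6a9 had more than 1 row, so much of this agreement, and of that in the counts, was fixed in advance. Got1 stayed below 2-fold in all 11 alternatives. At 1.5-fold 16 members were higher (11.1% of all genes) and 1 lower, Chac1 (8.77%). At 4-fold 4 were higher, Nupr1, Mthfd1l, Asns and Shmt2 (0.708%), and 0 lower. No paired analysis was possible because each group has 1 array, and leaving out a replicate was not possible for the same reason. Precision is limited by there being 1 array a group, and values near 5.44, as of Slc38a1 and Aldh1l2, are close to the low-signal level.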
